A study of Homo sapiens with 9 samples.

Results

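RNA of 37 genes that load the replicative helicase, build the replication fork or drive their transcription was examined in KYSE180, an established human cell line labelled as esophageal squamous cell carcinoma, which the series title calls KDM6A-deficient (KDM6A removes the histone mark that EZH2 writes). The genes were taken by symbol, matched to the Ensembl identifiers of the count table (positions below are those of GENCODE 29 on GRCh38); all 37 were among its 57905 genes and among the 13252 with enough counts to be tested. The groups were cells with the short hairpin shEZH2#1 against EZH2, the histone methyltransferase of Polycomb repressive complex 2, cells with the hairpin shEZH2#3 against the same gene, and cells with a luciferase hairpin, shluc, as control. Each group had 3 libraries, and every library came from cells exposed to 6 Gy of ionizing radiation, so that irradiation is shared by the control. No unirradiated sample was analysed here. The titles speak of hairpins and the series title of knockdown, whereas the genotype label of the EZH2 groups reads knockout; groups follow the titles. Whether the cells were clones or pools, and whether the replicates were separate cultures, is not given in the sources used here, so the p-values reflect library-to-library spread, which may be purely technical.

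Before S phase, the origin recognition complex, CDC6 and CDT1 place rings of MCM2 to MCM7 on DNA, which licenses an origin for a single use. Kinases then recruit CDC45, the GINS complex and MCM10, which turn the ring into an active helicase, and polymerases, the primase, the sliding clamp and its loader copy both strands behind it. Most of these genes are transcribed under E2F factors around the transition into S phase, with cyclin E as a partner kinase subunit and target, and many are abundant in dividing tumour cells.

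Library totals were 14958011 to 16946226 estimated counts with shEZH2#1, 18366510 to 21152006 with shEZH2#3 and 18563879 to 19508444 with shluc. EZH2 itself (ENSG00000106462, chromosome 7, 148807383 to 148884321) stood at 11.6, 11.3 and 7.28 CPM (counts scaled to a common library size by the TMM method) with shEZH2#1, 9.67, 11.0 and 9.12 CPM with shEZH2#3 and 18.4, 20.1 and 19.5 CPM with shluc. It fell under either hairpin (shEZH2#1 -0.94 ± 0.18, adjusted p = 0.00163; shEZH2#3 -0.96 ± 0.18, adjusted p = 0.000433; given as log2 fold change and its approximate standard error). Levels followed the GC content of transcripts differently in the groups: the rank correlation of a library's deviation with GC over 12949 genes was -0.247 to 0.253 with shEZH2#1, 0.372 to 0.639 with shEZH2#3 and -0.692 to -0.392 with shluc. A fit that smooths out GC content and length in each library is therefore given beside the results; in that fit EZH2 also fell (shEZH2#1 -0.73, adjusted p = 0.00399; shEZH2#3 -0.56, adjusted p = 0.0134). Of 10 markers of squamous epithelium 6 were tested; KRT17 and SFN were abundant, with at least 960.1 and 323 CPM in every library, whereas KRT5 and TP63 had at most 0.718 and 1.03 CPM and KRT14, KRT6A, DSG3 and DSC3 fell below the filter, so that 6 of the 10 markers went against the squamous label. SFN, the epithelial 14-3-3 sigma, was called higher with both hairpins (after the correction with shEZH2#1 only, shEZH2#3 turning to -0.04, adjusted p = 0.720). EPCAM (-1.87 ± 0.36, adjusted p = 0.000461) and CDH1 (-0.99 ± 0.22, adjusted p = 0.00149), adhesion proteins of epithelia, fell with shEZH2#3, and after the correction 0 of the 6 were called higher and 3 lower with shEZH2#3. The list summed to 2075 to 2448 CPM with shEZH2#1, 1764 to 1983 CPM with shEZH2#3 and 1293 to 1815 CPM with shluc. Of 8 markers of blood, endothelial and stromal cells, PTPRC, CD3E and COL1A2 were at 0 in all 9 libraries. Of the 4 tested (VWF, COL1A1, PDGFRB and DCN) all 4 were called higher with shEZH2#3, while with shEZH2#1 DCN was called higher and COL1A1 lower; after the correction DCN alone was called with shEZH2#3 and COL1A1 stood at 0.01, adjusted p = 0.976. The list summed to 52.2 to 58.6 CPM with shEZH2#1, 77.5 to 117 CPM with shEZH2#3 and 55.6 to 65.1 CPM with shluc, and its part in the results below was not tested.

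With shEZH2#3 some of the replication genes rose, led by CDT1, E2F2, E2F1 and POLD1, and a larger number fell, led by MCM10, PRIM2 and CDC6. After the GC and length correction E2F1, POLD1 and PRIM2 were not called with shEZH2#3. The direction went with GC content in the 37 genes (rank correlation 0.792) and over all genes (0.693). With shEZH2#1 most of the 37 genes did not pass the test, E2F1 rose, and MCM3, GINS3 and ORC1 fell. A gene was called at an adjusted p below 0.05 in a fit of all genes. By that rule 7 of 37 genes rose (18.9%) and 13 fell (35.1%) with shEZH2#3, where 44.2% of all 13252 genes were called (24.4% higher and 19.8% lower). With shEZH2#1, 1 of 37 rose and 3 fell, where 19.0% of all genes were called (11.2% higher and 7.89% lower). The median log2 fold change of the 37 genes was -0.08 with shEZH2#1 (all genes -0.07) and -0.25 with shEZH2#3 (all genes -0.01). E2F1 was called higher and GINS3 lower with both hairpins, as were 7.99% and 3.26% of all genes; both comparisons use the same 3 shluc libraries. In bulk RNA, fewer cells in the phases that express these genes and less RNA per cell cannot be told apart.

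Set side by side without a test, all 3 shEZH2#3 libraries lay above all 3 shluc libraries for 8 of the 37 genes and below them for 16, against 26.9% and 26.0% of all genes. The shEZH2#1 libraries lay above shluc for 4 genes and below for 8, against 18.3% and 18.9% of all genes. After the GC and length correction, 4 of the 37 rose and 7 fell with shEZH2#3 (24.2% of all genes called, 12.7% higher and 11.5% lower), and 1 rose and 2 fell with shEZH2#1 (18.1%, 8.22% higher and 9.89% lower). CDT1, E2F2, POLE, MCM10, CDC6 and GINS4 were called with shEZH2#3 in the same direction under all 20 alternative settings, among them the correction and each library left out.

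**Figure D1:**
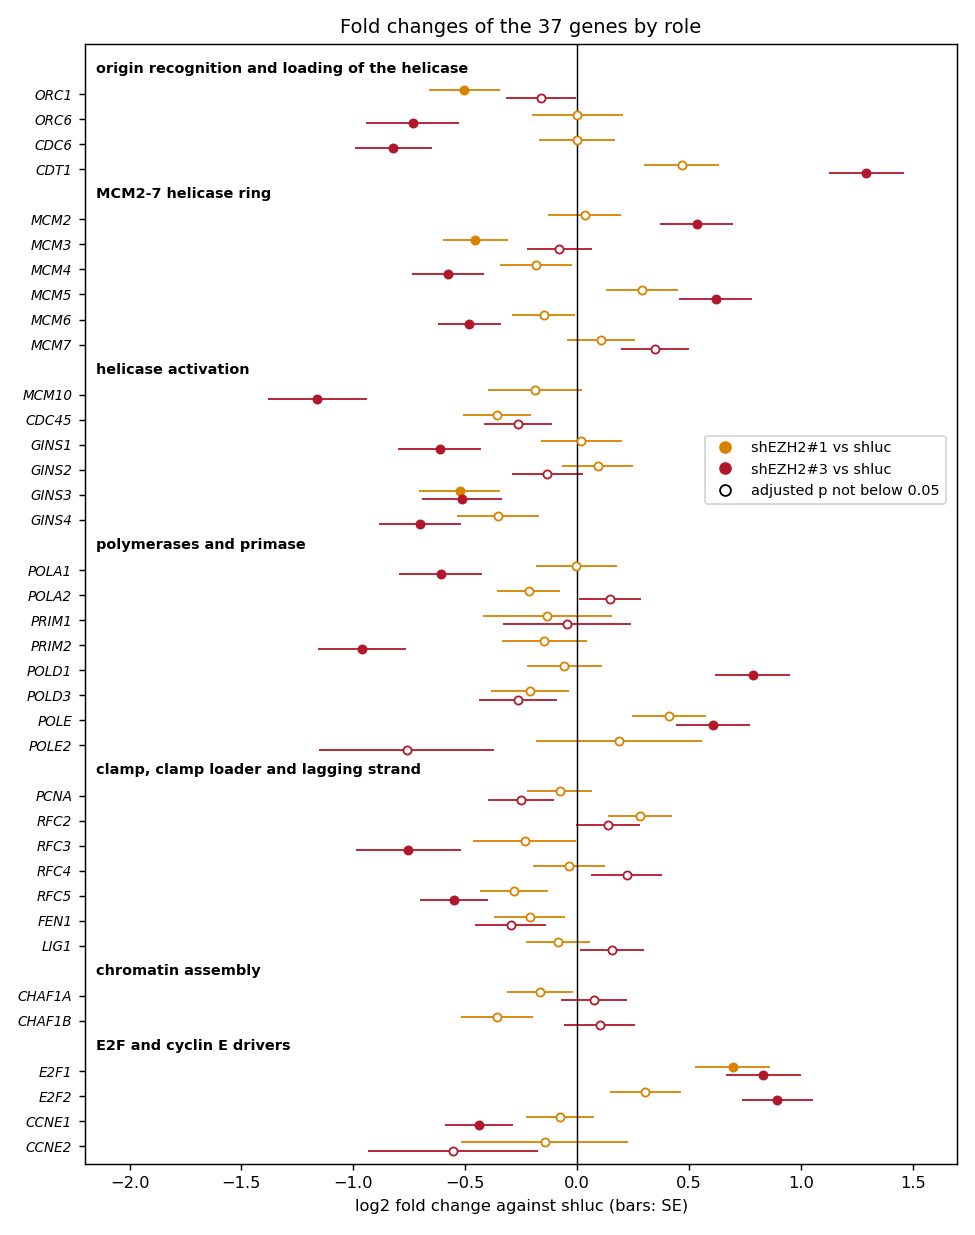
Log2 fold change of each of the 37 genes against shluc (horizontal axis) with shEZH2#1 in orange and shEZH2#3 in red, in blocks by role; bars are standard errors and filled points have an adjusted p below 0.05. With shEZH2#3, CDT1 lies farthest right at 1.29 and MCM10 farthest left at -1.16, while most shEZH2#1 points are open and lie nearer to 0.

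The promoters of 6 of these genes are shown because they hold, or lack, a match to 3 E2F words that were searched for. With shEZH2#3, 2 of the 6 genes rose by over 0.8 on the log2 scale, 1 rose by less and 3 fell. Each runs 5′ to 3′ on the gene's strand from 170 bases before to 30 bases after the transcription start, from RefSeq on GRCh38.p14: CDT1 at chr16:88803619-88803818 (plus strand), E2F1 at chr20:33686356-33686555 (minus), MCM2 at chr3:127598241-127598440 (plus), CDC6 at chr17:40287709-40287908 (plus), MCM10 at chr10:13161388-13161587 (plus) and MCM6 at chr2:135876414-135876613 (minus). Capitals mark matches to TTTCCCGC, TTTGGCGC or TTTCGCGC on either strand. The TTTGGCGC and the reversed TTTCGCGC overlap in MCM6, as do the forward and the reversed TTTCGCGC in MCM2. Words with another last letter, such as tttggcgg in CDT1, CDC6 and MCM10 or tttcgcgg in E2F1, were not counted as matches. A promoter without capitals may therefore still hold an E2F site.
CDT1: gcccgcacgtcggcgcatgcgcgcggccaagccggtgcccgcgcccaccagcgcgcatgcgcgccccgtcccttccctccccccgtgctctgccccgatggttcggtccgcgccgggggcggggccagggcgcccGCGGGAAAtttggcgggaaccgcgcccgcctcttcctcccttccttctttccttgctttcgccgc
E2F1: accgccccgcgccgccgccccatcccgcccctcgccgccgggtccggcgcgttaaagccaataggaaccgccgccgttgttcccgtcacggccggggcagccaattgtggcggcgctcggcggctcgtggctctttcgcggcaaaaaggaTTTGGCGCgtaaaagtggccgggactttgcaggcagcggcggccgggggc
MCM2: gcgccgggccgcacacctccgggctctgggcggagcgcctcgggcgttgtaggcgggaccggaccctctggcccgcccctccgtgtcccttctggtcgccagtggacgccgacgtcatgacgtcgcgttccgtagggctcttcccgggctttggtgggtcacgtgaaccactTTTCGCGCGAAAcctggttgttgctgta
CDC6: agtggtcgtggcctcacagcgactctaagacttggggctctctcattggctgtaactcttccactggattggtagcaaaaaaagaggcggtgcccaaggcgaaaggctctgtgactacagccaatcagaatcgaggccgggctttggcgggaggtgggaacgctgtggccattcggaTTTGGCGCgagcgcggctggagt
MCM10: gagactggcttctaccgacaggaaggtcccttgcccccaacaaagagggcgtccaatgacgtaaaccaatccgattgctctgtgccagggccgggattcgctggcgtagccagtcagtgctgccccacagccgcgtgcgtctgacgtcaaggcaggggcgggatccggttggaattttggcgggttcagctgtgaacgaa
MCM6: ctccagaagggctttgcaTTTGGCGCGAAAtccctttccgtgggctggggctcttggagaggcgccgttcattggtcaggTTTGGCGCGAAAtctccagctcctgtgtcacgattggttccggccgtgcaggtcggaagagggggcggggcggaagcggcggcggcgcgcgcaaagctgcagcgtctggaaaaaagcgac

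Promoters of 32 of the 37 genes were looked up, with 250 bases before and 50 after the start. MCM4, MCM5, GINS4, POLD3 and CCNE2 were not among them. The counts by direction therefore leave out MCM5, which rose with shEZH2#3, and MCM4 and GINS4, which fell. A match to at least 1 of the 3 E2F words was present in 18 of 32 (56.2%), against 902 of all 27305 genes with a promoter (3.3%). Matches were found in genes of either direction. They were in 5 of the 6 looked-up genes that rose with shEZH2#3, 6 of the 11 that fell and 7 of the 15 not called. CCAAT, the box bound by NF-Y, was in 17 of 32 (53.1%, against 39.7% of the 27305 genes), in 2 of the 6 that rose and in 7 of the 11 that fell. TTTGAA, the core of the CHR element of late cell cycle promoters, was in 0 of 32 on either strand, against 18.2% of the 27305 genes. A match is a description of letters and no match says nothing of the factor; no binding was measured.

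Of the 4 genes that recognise origins and load the helicase, CDT1 rose and CDC6 and ORC6 fell with shEZH2#3, and ORC1 fell with shEZH2#1. Among all genes 24.4% rose and 19.8% fell with shEZH2#3, and 11.2% and 7.89% with shEZH2#1. CDT1 has 64.9% GC, and 45.1% of all genes above 50% GC rose with shEZH2#3. CDC6 and ORC6 have 45.5 and 44.4% GC, and 36.3% of all genes at or below 50% GC fell with shEZH2#3. CDT1 (ENSG00000167513, chromosome 16, 88803213 to 88809258), the licensing factor that is destroyed once S phase starts, had 197, 238 and 245 CPM with shEZH2#1, 399.7, 459 and 345 CPM with shEZH2#3 and 178, 133 and 181 CPM with shluc. Every shEZH2#3 library lay above every other library, and every shEZH2#1 library lay above the shluc libraries by a smaller margin. CDT1 rose with shEZH2#3 (1.29 ± 0.17, adjusted p = 2.01e-05), the largest rise among the 37 genes, and did not pass with shEZH2#1 (0.47 ± 0.17, adjusted p = 0.0541), where it passed without shEZH2#1 replicate 1, shEZH2#3 replicate 1 or shluc replicate 3. After the correction it still rose with shEZH2#3 (0.63, adjusted p = 0.000257), by less than the uncorrected value, and stood at 0.04, adjusted p = 0.828 with shEZH2#1.

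CDC6 (ENSG00000094804, chromosome 17, 40287633 to 40304657), the ATPase that works with CDT1 at the origin, had 27.9, 27.7 and 22.9 CPM with shEZH2#1, 11.7, 15.5 and 17.2 CPM with shEZH2#3 and 22.3, 28.9 and 27.2 CPM with shluc. The shEZH2#3 libraries were the 3 lowest, and the shEZH2#1 and shluc libraries overlapped. CDC6 fell with shEZH2#3 (-0.82 ± 0.17, adjusted p = 0.00107; -0.42, adjusted p = 0.0374 after the correction) and had a fold change of 0.00 ± 0.17 with shEZH2#1. ORC6 (ENSG00000091651, chromosome 16, 46689643 to 46698394), the smallest subunit of the origin recognition complex, had 11.6, 9.12 and 8.53 CPM with shEZH2#1, 4.23, 6.30 and 7.02 CPM with shEZH2#3 and 10.4, 8.33 and 10.5 CPM with shluc. The 3 lowest values were again those of shEZH2#3. ORC6 fell with shEZH2#3 (-0.73 ± 0.21, adjusted p = 0.00847), a call lost after the correction (adjusted p = 0.221). ORC1, the largest subunit, averaged 36.8 ± 3.17 CPM with shEZH2#1, 46.7 ± 5.89 CPM with shEZH2#3 and 52.2 ± 7.81 CPM with shluc (SD, n = 3 each). It fell with shEZH2#1 (-0.50 ± 0.16, adjusted p = 0.0304) and did not pass with shEZH2#3 (-0.16 ± 0.16, adjusted p = 0.408). The shEZH2#1 call of ORC1 was lost after the correction (adjusted p = 0.0512) and without shEZH2#1 replicate 2, shEZH2#1 replicate 3, shluc replicate 1 or shluc replicate 2 (adjusted p up to 0.146).

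The 6 subunits of the MCM ring, which are present in equal numbers in the protein complex, were not all called in 1 direction at the RNA level. With shEZH2#3, MCM5 and MCM2 rose, MCM4 and MCM6 fell, and MCM7 and MCM3 did not pass, but after the GC and length correction only MCM4 was called and MCM6 turned to 0.02; with shEZH2#1 only MCM3 was called, lower. MCM2 (ENSG00000073111, chromosome 3, 127598223 to 127622436) had 680.3, 715 and 811 CPM with shEZH2#1, 882, 1157 and 1083 CPM with shEZH2#3 and 843, 661 and 650.3 CPM with shluc. All shEZH2#3 libraries lay above shluc, the nearest pair being 882 and 843 CPM, and the shEZH2#1 libraries overlapped shluc. MCM2 rose with shEZH2#3 (0.54 ± 0.16, adjusted p = 0.0129), a call lost without shEZH2#3 replicate 2 (adjusted p = 0.0672) and after the correction (adjusted p = 0.616). An antisense gene covers 22.7% of the exon bases of MCM2, and since the strand setting of the counting is unknown its reads cannot be told apart from those of MCM2.

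MCM5 averaged 417 ± 44.9 CPM with shEZH2#1, 524 ± 65.5 CPM with shEZH2#3 and 341 ± 52.0 CPM with shluc (SD, n = 3 each), and rose with shEZH2#3 (0.62 ± 0.16, adjusted p = 0.00511). MCM4 averaged 56.3 ± 2.93 CPM with shEZH2#1, 42.9 ± 6.55 CPM with shEZH2#3 and 64.0 ± 11.8 CPM with shluc and fell with shEZH2#3 (-0.58 ± 0.16, adjusted p = 0.00777). MCM6 averaged 29.1 ± 1.44 CPM with shEZH2#1, 23.1 ± 0.299 CPM with shEZH2#3 and 32.2 ± 2.08 CPM with shluc and fell with shEZH2#3 (-0.48 ± 0.14, adjusted p = 0.0108). The correction left only the fall of MCM4 (-0.36, adjusted p = 0.0335): MCM5 did not pass (adjusted p = 0.0664) and MCM6 turned to 0.02, adjusted p = 0.930. The MCM4 call was lost without shluc replicate 2 and shEZH2#3 replicate 1 together, a setting added after the data were seen. MCM3 averaged 150.4 ± 3.43 CPM with shEZH2#1, 195 ± 21.6 CPM with shEZH2#3 and 206 ± 17.7 CPM with shluc, and fell with shEZH2#1 (-0.45 ± 0.15, adjusted p = 0.0343; -0.32, adjusted p = 0.0151 after the correction). That call was lost without any single shEZH2#1 library or without shluc replicate 1 (adjusted p up to 0.135). MCM7, which overlaps AP4M1 on the other strand over 8.94% of its exon bases, passed with neither hairpin (shEZH2#1 0.11 ± 0.15, adjusted p = 0.658; shEZH2#3 0.35 ± 0.15, adjusted p = 0.0683, turning to -0.09, adjusted p = 0.446 after the correction); the shEZH2#3 value as counted passed without shluc replicate 1.

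Per length of transcript the ring subunits differed widely, in the same order in all 9 libraries: MCM2, MCM7, MCM5, MCM3, MCM4, MCM6. In shEZH2#1 libraries MCM2 averaged 203 and MCM6 7.79 CPM per kb, in shEZH2#3 libraries 287 and 6.18, and in shluc libraries 198 and 8.63 CPM per kb. That order is also the order of GC content, from 58.1% in MCM2 to 43.1% in MCM6. The ratio of MCM2 to MCM6 per kb was 26.2 ± 3.25 with shEZH2#1, 46.5 ± 6.88 with shEZH2#3 and 23.2 ± 4.92 with shluc (SD, n = 3 each). It uses levels not corrected for GC content, was chosen after its values were seen and was not tested.

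**Figure D2:**
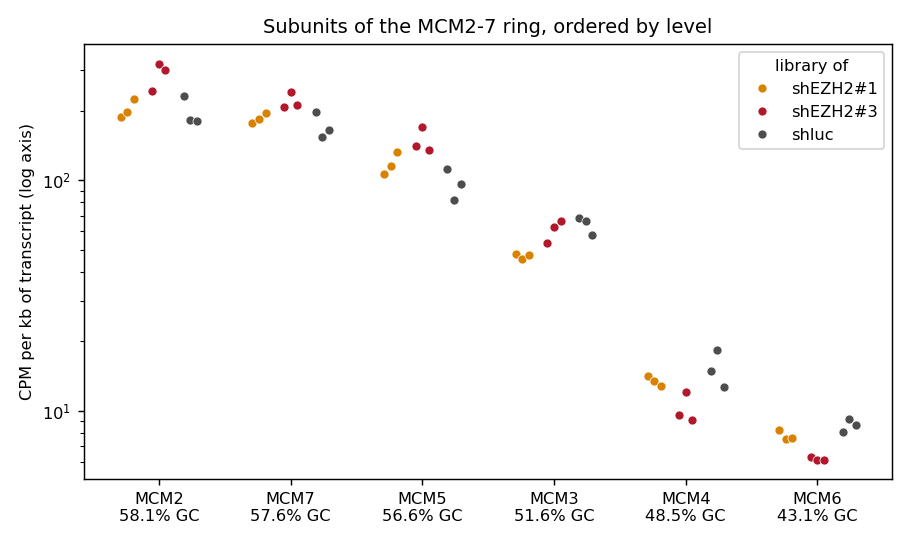
Level of each MCM ring subunit in CPM per kb of transcript (log axis) in each library of shEZH2#1 (orange), shEZH2#3 (red) and shluc (grey), ordered by level, with the GC content of the transcript under each name. The shEZH2#3 points lie above shluc for MCM2 and MCM5 and below for MCM4 and MCM6, and the span from MCM2 to MCM6 is widest in red; the plotted levels are not corrected for GC content, and after that correction MCM2 and MCM5 were not called and MCM6 turned to 0.02.

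Among the 6 genes that turn the loaded ring into a helicase, 4 fell with shEZH2#3 (MCM10, GINS4, GINS1 and GINS3) and 0 rose. With shEZH2#1 GINS3 fell, as did 7.89% of all genes. Over all genes 19.8% fell and 24.4% rose with shEZH2#3. Apart from CDC45 at 51.4% GC, the 6 genes lay at or below 50% GC, where 36.3% of all genes fell and 3.28% rose. Every one of the 6 had a negative fold change with shEZH2#3 as counted, from -1.16 for MCM10 to -0.13 for GINS2. After the correction MCM10 and GINS4 were still called, and GINS1 stood at -0.07 and GINS2 at 0.0025. MCM10 (ENSG00000065328, chromosome 10, 13161554 to 13211104), a scaffold that activates the helicase and holds polymerase alpha, had 6.71, 6.94 and 5.73 CPM with shEZH2#1, 2.63, 4.30 and 2.98 CPM with shEZH2#3 and 7.37, 8.13 and 6.61 CPM with shluc. All shEZH2#3 libraries lay below all others, and shEZH2#1 overlapped shluc. Its fall with shEZH2#3 was the largest of the 37 genes (-1.16 ± 0.22, adjusted p = 0.000461; -0.65, adjusted p = 0.0231 after the correction), and it did not pass with shEZH2#1 (-0.19 ± 0.21, adjusted p = 0.569).

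The 4 GINS genes encode the complex that joins CDC45 and the MCM ring. GINS3 (ENSG00000181938, chromosome 16, 58295080 to 58406144) had 12.6, 10.8 and 12.9 CPM with shEZH2#1, 9.55, 13.7 and 13.2 CPM with shEZH2#3 and 18.9, 18.8 and 14.3 CPM with shluc. All 6 EZH2 hairpin libraries lay below all shluc libraries, although the highest of them, 13.7 CPM, was near the lowest shluc value of 14.3 CPM. GINS3 fell with shEZH2#1 (-0.52 ± 0.18, adjusted p = 0.0472). It also fell with shEZH2#3 (-0.52 ± 0.18, adjusted p = 0.0258), and both adjusted p-values lay close to the threshold. The shEZH2#1 call was lost in 7 of 9 fits with a library left out (adjusted p up to 0.183), the exceptions being shEZH2#3 replicate 1 and shluc replicate 3; the shEZH2#3 call was lost without shEZH2#3 replicate 1, shluc replicate 1 or shluc replicate 2 (adjusted p up to 0.126), and neither held after the correction. An antisense gene overlaps 10.9% of its exon bases.

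GINS1 (ENSG00000101003, chromosome 20, 25407727 to 25452628) had 8.83, 8.997 and 7.28 CPM with shEZH2#1, 4.80, 6.11 and 5.30 CPM with shEZH2#3 and 8.38, 7.86 and 8.58 CPM with shluc. The shEZH2#3 libraries were the 3 lowest and the other groups overlapped. GINS1 fell with shEZH2#3 (-0.61 ± 0.19, adjusted p = 0.0126), a call lost without shEZH2#3 replicate 1 (adjusted p = 0.05004) and after the correction (adjusted p = 0.787). GINS4, with an antisense gene over 21.2% of its exon bases, fell with shEZH2#3 (-0.70 ± 0.18, adjusted p = 0.00505; -0.46, adjusted p = 0.0341 after the correction). GINS2 and CDC45 passed with neither hairpin. GINS2 had 0.09 ± 0.16 with shEZH2#1 and -0.13 ± 0.16 with shEZH2#3. CDC45, the helicase cofactor, had -0.36 ± 0.15 with shEZH2#1 and -0.26 ± 0.15 with shEZH2#3, with all 6 hairpin libraries below shluc.

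Of the 8 polymerase and primase genes, POLE and POLD1, catalytic subunits of the leading and lagging strand enzymes, rose with shEZH2#3 as counted. The initiating subunits POLA1 and PRIM2 fell. Over all genes 24.4% rose and 19.8% fell. POLE and POLD1 have 56.4 and 65.0% GC, and POLA1 and PRIM2 have 42.9 and 41.6%. After the GC and length correction POLE alone of the 8 was called with shEZH2#3. With shEZH2#1, 0 of the 8 passed as counted. POLD1 (ENSG00000062822, chromosome 19, 50384204 to 50418016), the catalytic subunit of polymerase delta, had 95.1, 105 and 109 CPM with shEZH2#1, 169, 220.0 and 164 CPM with shEZH2#3 and 125, 84.4 and 112 CPM with shluc. The 3 shEZH2#3 values were the highest, and shEZH2#1 lay within the shluc range. POLD1 rose with shEZH2#3 (0.78 ± 0.17, adjusted p = 0.00118), a call lost after the correction (adjusted p = 0.321), which instead called it lower with shEZH2#1 (-0.47, adjusted p = 0.00205, against -0.06 uncorrected). POLE, the catalytic subunit of polymerase epsilon, averaged 225 ± 19.1 CPM with shEZH2#1, 257 ± 34.0 CPM with shEZH2#3 and 169 ± 32.0 CPM with shluc (SD, n = 3 each). POLE rose with shEZH2#3 (0.61 ± 0.17, adjusted p = 0.00662; 0.31, adjusted p = 0.0322 after the correction), and with shEZH2#1 it did not pass as counted but passed after the correction (0.41 ± 0.16, adjusted p = 0.0866; 0.40, adjusted p = 0.0121 corrected).

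PRIM2 (ENSG00000146143, chromosome 6, 57314805 to 57646849), the large subunit of the primase, had 7.68, 8.45 and 6.98 CPM with shEZH2#1, 4.80, 4.37 and 3.98 CPM with shEZH2#3 and 7.55, 10.1 and 8.00 CPM with shluc. The shEZH2#3 values lay clear below the rest. PRIM2 fell with shEZH2#3 (-0.96 ± 0.20, adjusted p = 0.000804), and the correction left it just above the threshold (-0.43, adjusted p = 0.0512); the gene has a near-identical duplicated copy, so its count is uncertain. POLA1 (ENSG00000101868, chromosome X, 24693919 to 24996986), the catalytic subunit of polymerase alpha, had 19.3, 16.9 and 15.1 CPM with shEZH2#1, 9.90, 11.7 and 12.2 CPM with shEZH2#3 and 13.3, 21.4 and 16.7 CPM with shluc. The shEZH2#3 values were the lowest 3, the highest of them at 12.2 CPM beside a shluc library at 13.3 CPM. POLA1 fell with shEZH2#3 (-0.61 ± 0.19, adjusted p = 0.0128), a call lost without shluc replicate 2 (adjusted p = 0.0657) and after the correction (adjusted p = 0.835).

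The other 4 of these genes, POLA2, PRIM1, POLD3 and POLE2, passed with neither hairpin. PRIM1, the catalytic subunit of the primase, had -0.13 ± 0.29 with shEZH2#1 and -0.05 ± 0.29 with shEZH2#3, and a neighbouring gene shares 14.9% of its exon bases. POLD3, an accessory subunit of polymerase delta, had -0.21 ± 0.17 with shEZH2#1 and -0.26 ± 0.17 with shEZH2#3. For neither gene did the libraries of the hairpins separate from shluc. POLE2, a low gene at 1.68 ± 0.600 CPM with shEZH2#1, 0.871 ± 0.0692 CPM with shEZH2#3 and 1.48 ± 0.245 CPM with shluc, had wide errors (0.19 ± 0.37 with shEZH2#1 and -0.76 ± 0.39 with shEZH2#3). POLA2, the second subunit of polymerase alpha, shares 35.1% of its exon bases with a read-through gene and had -0.22 ± 0.14 with shEZH2#1 and 0.15 ± 0.14 with shEZH2#3.

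Of the 7 genes for the clamp, its loader and the processing of lagging strand fragments, RFC3 and RFC5 fell with shEZH2#3, and 0 were called with shEZH2#1. Of all genes 19.8% fell with shEZH2#3, and 19.0% were called with shEZH2#1. RFC3 and RFC5 have 39.05 and 44.47% GC, and 36.3% of all genes at or below 50% GC fell with shEZH2#3. Among the loader subunits, RFC3 had -0.75 ± 0.23, adjusted p = 0.0142 and RFC5 -0.55 ± 0.15, adjusted p = 0.00740, whereas RFC2 (0.14 ± 0.14) and RFC4 (0.22 ± 0.16) did not pass, all with shEZH2#3. RFC3 averaged 6.33 ± 1.64 CPM with shEZH2#1, 4.41 ± 1.10 CPM with shEZH2#3 and 7.44 ± 1.07 CPM with shluc (SD, n = 3 each), and its call was lost without shEZH2#3 replicate 1 or shluc replicate 2 (adjusted p up to 0.0648). Neither call held after the correction, which instead called RFC4 higher (0.53, adjusted p = 0.0117) and FEN1, the flap endonuclease, lower (-0.50, adjusted p = 0.00562, against -0.30 ± 0.16, adjusted p = 0.129 uncorrected).

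PCNA, the sliding clamp and a common proliferation marker, averaged 55.9 ± 2.71 CPM with shEZH2#1, 49.6 ± 6.64 CPM with shEZH2#3 and 59.0 ± 4.17 CPM with shluc (SD, n = 3 each). It passed with neither hairpin (shEZH2#1 -0.08 ± 0.15, adjusted p = 0.750; shEZH2#3 -0.25 ± 0.15, adjusted p = 0.166). LIG1, the ligase that seals the fragments, passed with neither (-0.08 ± 0.14 with shEZH2#1 and 0.16 ± 0.14 with shEZH2#3). With shEZH2#1 the 7 genes ran from -0.28 for RFC5 to 0.28 for RFC2.

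CHAF1A and CHAF1B, subunits of the chromatin assembly factor that places histones on new DNA, passed with neither hairpin. CHAF1B (ENSG00000159259, chromosome 21, 36385378 to 36419015) had 21.1, 19.0 and 23.6 CPM with shEZH2#1, 26.8, 31.5 and 29.3 CPM with shEZH2#3 and 31.6, 27.1 and 22.9 CPM with shluc. The hairpins did not overlap with each other, and both overlapped shluc. CHAF1B had -0.36 ± 0.16 with shEZH2#1, a value that passed without shluc replicate 3, and 0.10 ± 0.16 with shEZH2#3. CHAF1A had -0.16 ± 0.15 with shEZH2#1 and 0.08 ± 0.15 with shEZH2#3, and the correction turned the shEZH2#3 value to a call in the other direction (-0.37, adjusted p = 0.0356).

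Of the transcriptional drivers, E2F1 rose with both hairpins, E2F2 rose and CCNE1 fell with shEZH2#3, and CCNE2 was not called. Among all genes 24.4% rose and 19.8% fell with shEZH2#3, and 7.99% rose with both hairpins. E2F1 (ENSG00000101412, chromosome 20, 33675683 to 33686404), an activator of S phase genes, had 157, 203 and 192 CPM with shEZH2#1, 219, 215 and 174 CPM with shEZH2#3 and 120.3, 90.3 and 130.4 CPM with shluc. All 6 hairpin libraries lay above all shluc libraries. E2F1 rose with shEZH2#1 (0.70 ± 0.17, adjusted p = 0.00718) and also rose in the shEZH2#3 comparison (0.83 ± 0.17, adjusted p = 0.000750). Both calls were lost after the correction (shEZH2#1 0.30, adjusted p = 0.0602; shEZH2#3 0.21, adjusted p = 0.154), and the shEZH2#1 call also without shEZH2#1 replicate 2 (adjusted p = 0.0521).

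E2F2 (ENSG00000007968, chromosome 1, 23506430 to 23531220), a second activating E2F, had 35.5, 40.8 and 44.5 CPM with shEZH2#1, 65.7, 64.2 and 51.7 CPM with shEZH2#3 and 37.8, 31.3 and 28.5 CPM with shluc. The shEZH2#3 libraries were the 3 highest, and shEZH2#1 overlapped shluc. E2F2 rose with shEZH2#3 (0.90 ± 0.16, adjusted p = 0.000270; 0.51, adjusted p = 0.00564 after the correction) and did not pass with shEZH2#1 (0.31 ± 0.16, adjusted p = 0.190). CCNE1, a cyclin E gene, averaged 21.6 ± 0.575 CPM with shEZH2#1, 16.8 ± 0.555 CPM with shEZH2#3 and 22.7 ± 2.94 CPM with shluc (SD, n = 3 each). CCNE1 fell with shEZH2#3 (-0.44 ± 0.15, adjusted p = 0.0255; -0.59, adjusted p = 0.00124 after the correction), a call lost without any 1 of the shEZH2#3 libraries or without shluc replicate 1 (adjusted p up to 0.0975). CCNE2 was low, at most 2.71 CPM in any library, overlaps INTS8 on the other strand over 37.0% of its exon bases, and had -0.15 ± 0.37 with shEZH2#1 and -0.55 ± 0.38 with shEZH2#3.

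**Figure D3:**
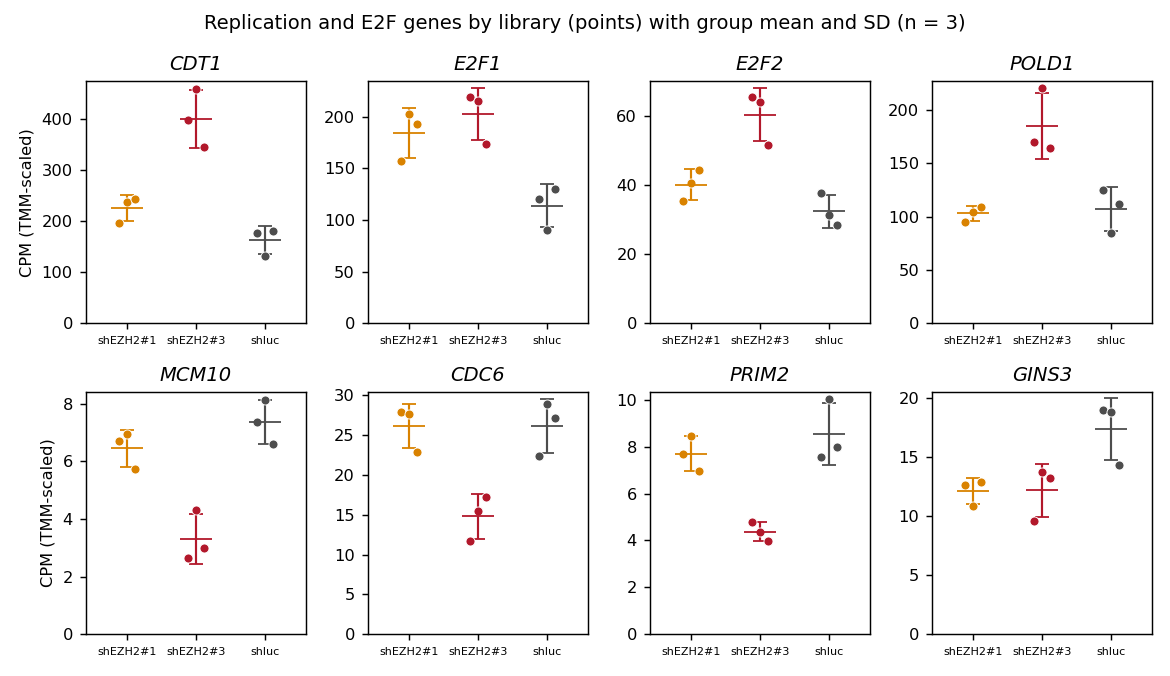
CPM in each library (points) with the group mean and SD (n = 3) of 4 genes that rose with shEZH2#3 (top row, CDT1, E2F1, E2F2 and POLD1) and 4 that fell (bottom row, MCM10, CDC6, PRIM2 and GINS3), for shEZH2#1, shEZH2#3 and shluc from left to right. The shEZH2#3 points are clear of shluc in all 8 panels, and shEZH2#1 is clear of shluc in the panels of CDT1, E2F1 and GINS3. Levels are not corrected for GC content. After that correction E2F1, POLD1, PRIM2 and GINS3 were not called with shEZH2#3.

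The direct comparison of the hairpins asks whether their effects on these genes differ, and it sets neither against shluc, whose libraries enter the fit only through scaling and the shared spread. Of the 37 genes, 6 were higher with shEZH2#1 than with shEZH2#3 and 5 were lower, where 25.0% of all genes were called (9.46% higher and 15.5% lower). The higher ones were MCM10 (0.97 ± 0.23, adjusted p = 0.00366), CDC6 (0.82 ± 0.17, adjusted p = 0.00187), PRIM2 (0.82 ± 0.20, adjusted p = 0.00550), ORC6 (0.74), GINS1 (0.63) and POLA1 (0.61). The lower ones were POLD1 (-0.84 ± 0.17, adjusted p = 0.00117), CDT1 (-0.83 ± 0.17, adjusted p = 0.00127), E2F2 (-0.59), MCM2 (-0.50) and CHAF1B (-0.46). The groups did not overlap for 12 genes in each direction, against 19.7% and 23.2% of all genes. After the correction 6 were higher and 4 lower, where 28.2% of all genes were called (13.2% higher and 15.1% lower). The set changed, as ORC6, GINS1, POLA1, E2F2 and MCM2 were no longer called. MCM4 (0.43, adjusted p = 0.013), CCNE1 (0.51, adjusted p = 0.00231) and RFC2 (0.29, adjusted p = 0.0190) were called higher only after the correction. RFC4 (-0.48, adjusted p = 0.0192) was called lower only after it. MCM10, CDC6, PRIM2, POLD1 and CDT1 were called under all 20 alternative settings. E2F1 did not differ detectably between the hairpins (-0.14 ± 0.17, adjusted p = 0.587), nor did GINS3 (-0.01 ± 0.18, adjusted p = 0.977). Calls of the other 6 were lost with libraries left out: ORC6 without shEZH2#1 replicate 1 or shEZH2#3 replicate 1, and E2F2 without shEZH2#1 replicate 1. GINS1 was lost without shEZH2#1 replicate 1 or 2 or shEZH2#3 replicate 1 or 3, POLA1 without shEZH2#1 replicate 1 or 2 or shEZH2#3 replicate 1 or 2, and MCM2 without shEZH2#1 replicate 1 or 2 or shEZH2#3 replicate 2 or 3. CHAF1B was lost without any shEZH2#1 library or shEZH2#3 replicate 2 or 3 (adjusted p up to 0.181).

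The direction of a gene with shEZH2#3 went with its GC content. The 37 transcripts ranged from 36.9% GC (CCNE2) to 65.0% (POLD1), with a median of 48.7% (all genes 50.3%). Of the 17 genes above 50% GC, 7 rose and 1 fell with shEZH2#3, against 45.1% and 4.22% of all genes above 50%. Of the 20 at or below 50%, 0 rose and 12 fell, against 3.28% and 36.3% of all such genes. With shEZH2#1, 1 of the 17 rose and 2 fell (20.8% and 6.18% of all such genes), and 0 of the 20 rose and 1 fell (1.12% and 9.8%). Between the hairpins, 0 of the 17 were higher with shEZH2#1 and 4 lower (5.2% and 26.1%), and 6 of the 20 were higher and 1 lower (13.8% and 4.67%). Ranked against GC content, fold changes of the 37 genes had a correlation of 0.332 with shEZH2#1, 0.792 with shEZH2#3 and -0.741 between the hairpins; over the 12949 genes with a GC content it was 0.47, 0.693 and -0.413. After the correction the values over the 37 genes were -0.299, 0.185 and -0.405. These are descriptions across genes, which share libraries and are not independent replicates.

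**Figure D4:**
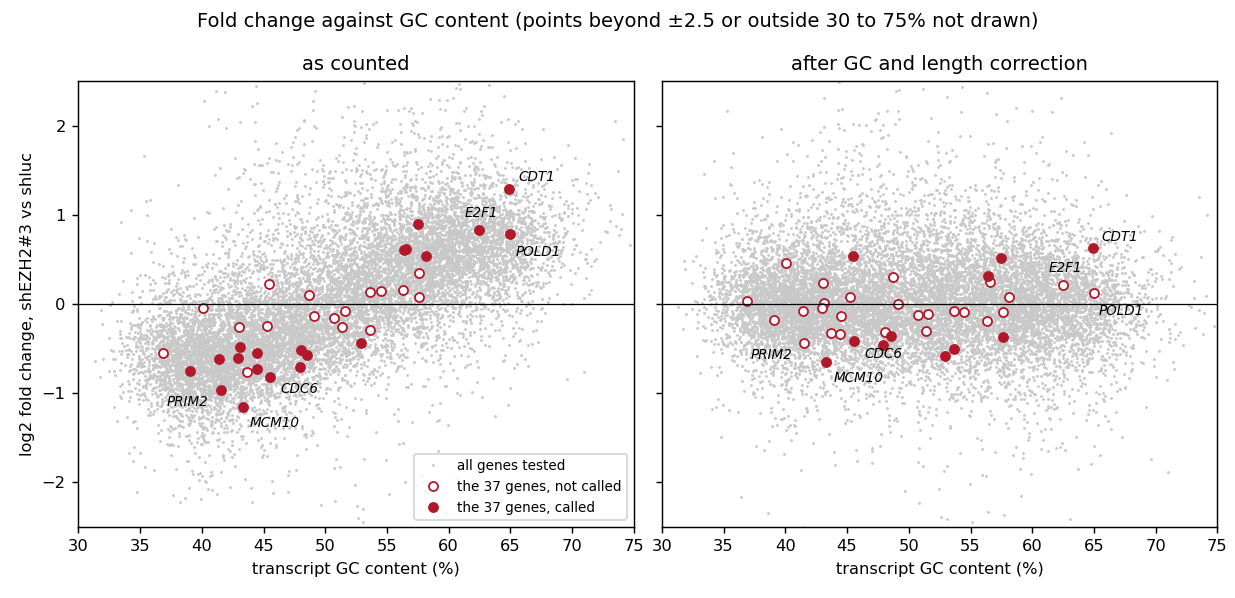
Log2 fold change of shEZH2#3 against shluc (vertical axis) against transcript GC content in percent (horizontal axis), as counted on the left and after the GC and length correction on the right; grey points are all genes tested and red points the 37 genes, filled where called. On the left the red points follow the rising grey band (rank correlation 0.792), and on the right the band is flat, with CDT1 at 0.63 and MCM10 at -0.65 still called.

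Per length of transcript, levels of the 37 genes spanned 0.539 to 203 CPM per kb with shEZH2#1, 0.408 to 287 CPM per kb with shEZH2#3 and 0.597 to 198 CPM per kb with shluc, with CCNE2 lowest and MCM2 highest in each group. The medians were 11.6 CPM per kb with shEZH2#1, 10.2 with shEZH2#3 and 14.1 with shluc. The level per kb also went with GC content over the 37 genes (rank correlation 0.816 with shEZH2#1, 0.856 with shEZH2#3 and 0.803 with shluc); over all genes it was 0.463 with shEZH2#1, 0.517 with shEZH2#3 and 0.393 with shluc. Summed over the 37 genes, libraries held 3487 to 3851 CPM with shEZH2#1, 4176 to 4969 CPM with shEZH2#3 and 3231 to 3843 CPM with shluc. The sum was highest with shEZH2#3, where more members fell than rose, the abundant MCM2, MCM5, CDT1 and POLE being among those that rose. The sums use levels not corrected for GC content and were not tested. After the GC and length correction MCM2 (adjusted p = 0.616) and MCM5 (adjusted p = 0.0664) were not called with shEZH2#3, while CDT1 and POLE were still called higher.

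A list of 44 further replication and E2F genes was counted in the same way, of which 43 were tested and 1 was not analysed here. With shEZH2#3, 4 rose (9.30%, against 24.4% of all genes) and 14 fell (32.6%, against 19.8%); the median log2 change was -0.50. With shEZH2#1, 2 rose (4.65%, against 11.2%) and 7 fell (16.3%, against 7.89%), with a median of -0.22. The lowest p-values with shEZH2#3 were those of E2F3 (-1.23 ± 0.20, adjusted p = 0.000143), another activating E2F, E2F7 (-1.20 ± 0.23, adjusted p = 0.000474), a repressing E2F, CLSPN (-1.61 ± 0.32, adjusted p = 0.000677), the fork checkpoint mediator claspin, and POLD4 (0.73 ± 0.16, adjusted p = 0.00183), the small subunit of polymerase delta. As counted, E2F3 and E2F7 thus fell where E2F1 and E2F2 rose. After the correction the rise of E2F2 with shEZH2#3 was still called (0.51, adjusted p = 0.00564). The rise of E2F1 was not (0.21, adjusted p = 0.154). With shEZH2#1, E2F3 had -0.26 ± 0.19, E2F7 -0.51 ± 0.22 and CLSPN -0.41 ± 0.30, and POLD4 rose (0.76 ± 0.16, adjusted p = 0.00360). After the correction the falls of E2F3, E2F7 and CLSPN with shEZH2#3 held (adjusted p = 0.00162, 0.0171 and 0.0124), and 0 of the list rose (12.7% of all genes) and 6 fell (14.0%, against 11.5% of all genes). Of this list, 1 gene was called higher and 3 lower with both hairpins, as were 7.99% and 3.26% of all genes.

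The listed genes of mitosis, which follow S phase in the cycle, moved in 1 direction. Like the other lists, this one was chosen with earlier results of these data known. The shares of all genes beside its counts are therefore a description and not an independent test. Of 20 tested, 17 fell and 0 rose with shEZH2#3 (median -1.27), where 19.8% of all genes fell, and 11 fell and 0 rose with shEZH2#1 (median -0.52), where 7.89% fell. After the correction 17 fell with shEZH2#3 (11.5% of all genes) and 10 with shEZH2#1 (9.89%). The lowest p-values with shEZH2#3 were those of KIF20A (-1.49 ± 0.17, adjusted p = 7.46e-06), a kinesin of cytokinesis, AURKA (-1.30 ± 0.15, adjusted p = 8.28e-06), the spindle pole kinase, and the spindle checkpoint kinases BUB1 (-1.54 ± 0.18, adjusted p = 9.09e-06) and BUB1B (-1.52 ± 0.18, adjusted p = 9.25e-06). With shEZH2#1 the first 3 fell as well (-0.92 ± 0.17, adjusted p = 0.00109, -0.87 ± 0.15, adjusted p = 0.000683 and -0.60 ± 0.17, adjusted p = 0.0219), and BUB1B had -0.37 ± 0.17. Summed, these 20 genes held 1414 to 1502 CPM with shEZH2#1, 1066 to 1203 CPM with shEZH2#3 and 1926 to 2027 CPM with shluc, with no overlap between groups. Against each other, 11 were higher with shEZH2#1 than with shEZH2#3 and 0 lower, where 9.46% and 15.5% of all genes were. Whether the replication genes differed from the mitosis genes was not tested.

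**Figure D5:**
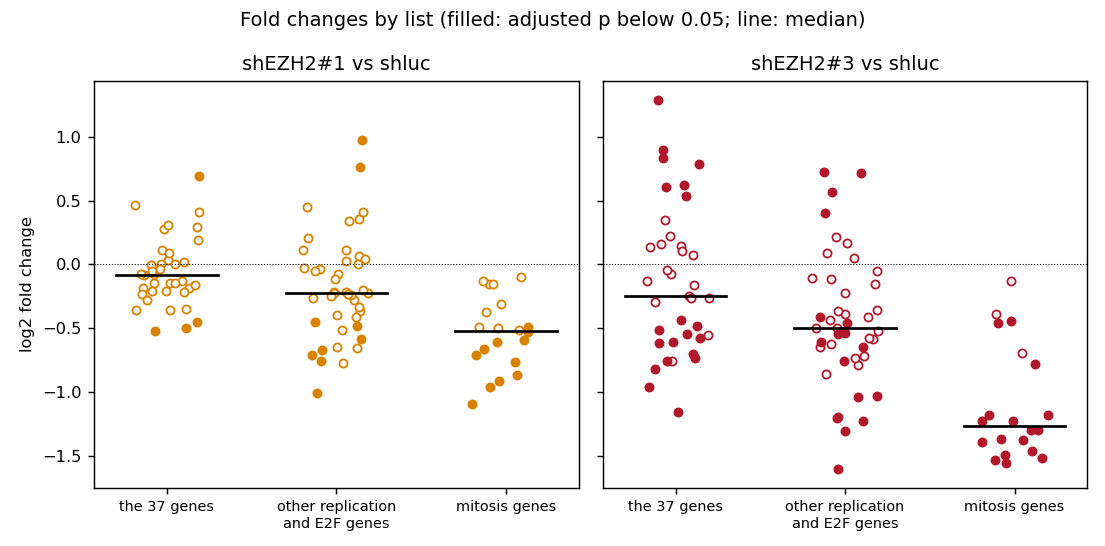
Log2 fold changes against shluc (vertical axis) of the 37 genes, the 43 other replication and E2F genes and the 20 mitosis genes, with shEZH2#1 on the left and shEZH2#3 on the right; each point is a gene, filled where the adjusted p is below 0.05, and black lines are medians. The mitosis medians lie at -0.52 and -1.27, below those of the 37 genes at -0.08 and -0.25, whose points spread to both sides of 0. Members and lists were chosen with earlier results of these data known.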

How the data were processed

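RNA was measured by sequencing of polyadenylated RNA from stranded libraries, per the labels' protocols. The authors deposited estimated counts by Ensembl gene, without normalization; 14.7 to 18.6% of the values above 0 have decimals, and library sums vary. The submitters' processing notes name fastp, HISAT2, StringTie and GRCh38 (hg38), with no versions; for counter, annotation and strand setting, not given in the sources used here. All 9 single-library files held the values of the series table.

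After rounding, edgeR 4.0.16 (R 4.3.3) was run on the estimated counts with TMM scaling, filterByExpr at a minimum count of 10 (13252 genes kept), 1 quasi-likelihood model of the 3 group means over all 9 libraries, and Benjamini-Hochberg adjustment over all genes tested. The biological coefficient of variation was 0.178. A count of 1 was worth 0.0473 to 0.0669 CPM. Errors of fold changes are the unshrunk fold change divided by the square root of F, and errors of CPM are SD. Libraries of a group differed by more than counting noise (chi-square per degree of freedom 14.5 to 76.9), so none was a copy.

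Symbols came from a naming table (51996 identifiers) and GENCODE 29 (342 more). GC content and length are those of the longest GENCODE 29 transcript and covered 97.7% of tested genes and all 37 members. The correction fits a lowess curve (span 0.3) to GC content and then to length within each library and enters as an offset. Promoters are from RefSeq. Members and lists were chosen with earlier results of these data known. By rule, values in every library are given for members called with both hairpins, called with 1 and changed by at least 0.8, or called between hairpins; of other lists, up to 4 genes with the lowest p with shEZH2#3. Alternatives were DESeq2 1.42.0, upper quartile and RLE scaling, no filter, a filter of 1 CPM in 6 libraries, only the groups compared, a replicate block, the correction with and without that block, no 2 abundant unnamed genes (5.97 to 22.6% of counts), and each library left out; leaving out shluc replicate 2 and shEZH2#3 replicate 1 together was added after seeing the data. The 2 unnamed genes held 15.8 to 22.6% of counts with shEZH2#1, 5.97 to 11.6% with shEZH2#3 and 6.96 to 9.28% with shluc. TMM factors ran from 0.910 to 1.05 with shEZH2#1, 0.827 to 0.889 with shEZH2#3 and 1.11 to 1.33 with shluc. The tests were tried on simulated data. Replicate numbers did not pair the samples. Some genes of the lists are not reported here.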

Additional observations from a re-analysis of the deposited data

Results flagged for a closer look

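For 11 of the 37 genes the direct test between the hairpins passed, that is, the change against shluc differed between shEZH2#1 and shEZH2#3. Of all 13252 genes, 25.0% passed the same test as counted. In the corrected fit 6 of the 37 were higher and 4 lower with shEZH2#1 than with shEZH2#3, where 28.2% of all genes passed. The log2 fold change of shEZH2#1 against shEZH2#3 was 0.97 for MCM10, 0.82 for CDC6, 0.82 for PRIM2, 0.74 for ORC6, 0.63 for GINS1 and 0.61 for POLA1. It was -0.84 for POLD1, -0.83 for CDT1, -0.59 for E2F2, -0.50 for MCM2 and -0.46 for CHAF1B. The first 6 have 41.4 to 45.5% GC, and the other 5 have 48.7 to 65.0% GC. After the GC and length correction the difference passed for MCM10 (0.75, adjusted p = 0.0101), CDC6 (0.71, adjusted p = 0.00161), PRIM2 (0.50, adjusted p = 0.0267), POLD1 (-0.60, adjusted p = 0.000177), CDT1 (-0.59, adjusted p = 0.000235) and CHAF1B (-0.41, adjusted p = 0.0277), and did not for the other 5.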

How the results depend on the processing

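Of the 111 values of the 37 genes in 3 comparisons, 108 kept their side of the threshold with RLE scaling, 105 with DESeq2, 110 with no filter, 110 with the stricter filter, 105 with only the groups compared, 107 without the 2 abundant unnamed genes, 100 with upper quartile scaling and 82 with the GC and length correction. Upper quartile scaling moved the median of all genes to -0.18 with shEZH2#3 (2421 higher and 3720 lower, against 3237 and 2624 with TMM) and to 0.18 between the hairpins (2207 higher and 1404 lower, against 1254 and 2057). The split with shEZH2#1 was 1089 higher and 1311 lower with the correction and 1707 and 779 without the 2 abundant unnamed genes, against 1478 and 1045. With the correction, MCM6 with shEZH2#3 was 0.0153 (0.0165 with the replicate block as well) and CHAF1A -0.374 (-0.37), both of the other sign than as counted; under no other alternative did a called value of a member change sign. Without shluc replicate 2 and shEZH2#3 replicate 1 together, calls of MCM4, RFC3, POLA1 and GINS3 with shEZH2#3 and of GINS3 with shEZH2#1 were lost. The cause of these and the following moves was not tested.

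With shEZH2#1, members called higher were 2 with upper quartile scaling, 3 with DESeq2, 2 with the stricter filter, 2 with only the groups compared, 2 with the 2 abundant unnamed genes removed and 2 when shluc replicate 2 and shEZH2#3 replicate 1 were both dropped, against 1. Members called lower with shEZH2#1 were 1 with RLE scaling, 1 without the 2 unnamed genes and 0 with the replicate block, against 3; without the 2 unnamed genes 5 of the other replication and E2F genes were called, against 9. With shEZH2#3 the correction left 4 members higher, 7 lower, 3207 genes in all and 6 of the other list, and with the correction and the replicate block 4, 7, 3031 and 6, against 7, 13, 5861 and 18. Without shluc replicate 2 and shEZH2#3 replicate 1 the other list had 10 calls with shEZH2#3. Between the hairpins, upper quartile scaling gave 11 members higher, 3 lower and 17 of the other list, against 6, 5 and 11; the replicate block gave 3 lower, and leaving out shluc replicate 2 and shEZH2#3 replicate 1 gave 9 lower and 4191 genes in all, against 3311.

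With 1 library left out, the ranges were as follows. With shEZH2#1, members higher ran from 0 to 2, members lower from 0 to 4, the other list from 4 to 9, mitosis genes from 5 to 12 and all genes from 1159 to 3063 (1550 with shluc replicate 2 left out, 1344 with shEZH2#1 replicate 2 left out and 1159 with shEZH2#1 replicate 3 left out, against 2523). With shEZH2#3, members higher ran from 6 to 8, members lower from 9 to 13, the other list from 11 (without shEZH2#3 replicate 2) to 19, mitosis genes from 15 to 18 and all genes from 4251 to 5823. Between the hairpins, members higher ran from 3 (without shEZH2#1 replicate 1 or shEZH2#3 replicate 1) to 9 (without shluc replicate 2), members lower from 2 to 7, the other list from 5 to 16, mitosis genes from 6 to 13 and all genes from 1956 to 3941. Same-numbered libraries deviated together with correlations of -0.122 to 0.082, so the numbers were not taken as pairs; with the replicate block 5 of 35 calls of members were lost and 0 gained, and all genes called were 2208, 5482 and 2938. Low genes such as POLE2 and CCNE2 had standard errors near 0.4, and even differences of -0.76 with shEZH2#3 and 0.95 between the hairpins did not pass for POLE2.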

Other observations

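GMNN, geminin, the inhibitor that binds CDT1, is among the other replication genes and was not named by the rule for that list. It was looked at after the values of CDT1 were seen. GMNN had 12.3, 11.6 and 9.78 CPM with shEZH2#1, 6.75, 8.36 and 7.18 CPM with shEZH2#3 and 9.44, 11.2 and 11.6 CPM with shluc. The shEZH2#3 libraries were the 3 lowest, and GMNN fell with shEZH2#3 (-0.54 ± 0.18, adjusted p = 0.0197), which the correction for GC content and length ended (-0.14, adjusted p = 0.546). The ratio of CDT1 to GMNN per kb of transcript was 7.99 ± 1.77 with shEZH2#1, 21.1 ± 2.19 with shEZH2#3 and 6.00 ± 1.37 with shluc (SD, n = 3 each). In single libraries it was 6.22, 7.98 and 9.76 with shEZH2#1, 23.1, 21.4 and 18.7 with shEZH2#3 and 7.34, 4.61 and 6.05 with shluc. The ratio uses levels not corrected for GC content, which is 64.9% in CDT1 and 43.6% in GMNN, and it was not tested.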
